A study of Mus musculus with 58 samples.

Results

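Vascular endothelial growth factor (VEGF) signalling was followed through 8 genes of the 55376 in the RNA count tables of mouse hematopoietic stem cells (HSCs). The set was chosen by symbol and holds the tyrosine kinase receptors Kdr (VEGFR2), Flt1 and Flt4, the co-receptors Nrp1 and Nrp2, and the ligands Vegfa, Vegfb and Vegfc. RNA was sequenced from HSCs of male C57BL/6 mice in 6 diet groups. Old mice of 24 to 26 months were fed ad libitum (OAL, 4 libraries), kept on lifelong 40% caloric restriction from the age of 3 to 4 months (OCR, 4), or restricted and then refed for 4 weeks (OCRRF, 2). Young mice of 3 to 4 months were fed ad libitum (YAL, 4), restricted by 20% for 1 week and by 40% for 3 weeks (YCR, 4), or restricted and then refed for 4 weeks (YCRRF, 4). These HSCs were sorted as Lin-Sca-1+c-Kit+CD34-Flk2-CD150+ cells. In a second experiment HSCs of aged mice were cultured with lentiviral shRNA, transplanted into irradiated young female recipients and sorted again as CD48-CD150+ donor cells. They carried a GFP-labelled Kdr shRNA (KdrKD, 4 libraries), that shRNA together with an mCherry-labelled Bmpr1a shRNA (double knockdown, 4 libraries, 2 for each of 2 Bmpr1a shRNAs), or the matching scramble constructs (2 libraries each). The study describes infecting HSCs with both labelled viruses, or both scrambles, and sorting single and double knockdown cells after transplantation. Single and double arms may therefore share infected cells and recipients, and no such pairing was modelled. A single Kdr shRNA was used throughout, so an effect of the hairpin beyond Kdr and an effect of Kdr loss cannot be told apart. ATAC-seq of OCR (4) and OCRRF (2), OCR histone ChIP-seq (2 per mark) and PU.1 ChIP-seq peaks of OAL, OCR and OCRRF (2 each) were also used.

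VEGF ligands are secreted proteins that bind receptor tyrosine kinases on the cell surface. VEGF-A acts mainly through KDR, with FLT1 as a high-affinity receptor of weak kinase activity, while VEGF-B binds FLT1, and VEGF-C binds FLT4 and, once processed, KDR. Neuropilins have no kinase domain, and they bind VEGFs and class 3 semaphorins alongside VEGF receptors or plexins. The family is best known from endothelium, and KDR also marks the hemogenic precursors from which the first HSCs arise.

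RNA depth was 11102898 to 36579392 counts per library in the diet groups and 35657999 to 44780217 in the transplant groups, and values are given as CPM, the counts scaled by library size after TMM normalization. All 9 HSC markers examined were detected in every group. No pair of replicate libraries agreed as closely as repeat counts of 1 library would, since the smallest chi-square per degree of freedom over 45 pairs was 8.17. The labels do not say that replicates came from separate mice. The study's legends give the same n for HSCs purified from mice, and its reporting summary speaks of biological replicates. Neither says whether cells of several mice were pooled. The p-values measure the spread between these libraries, part of which may be technical. In bulk samples a change in the share of cells that express a gene and a change in RNA per cell cannot be told apart.

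Of these genes, Kdr, Nrp2 and Vegfa had a PU.1 peak near their start site in most or all PU.1 libraries, and sequence covered by every library with the peak is shown here together with the Kdr promoter, the start of the gene of the set that changed most in old mice. PU.1 is an ETS family transcription factor of HSCs and myeloid cells whose sites contain the core GGAA. Sequences are from the mm10 build, RefSeq's GRCm38.p6, written 5′ to 3′ on the strand of the gene, and capitals mark GGAA or, on the other strand, TTCC. The Kdr stretch lay upstream of the gene at chr5:75981034-75981236 on the minus strand, the Nrp2 stretch upstream at chr1:62697022-62697242 on the plus strand, and the Vegfa stretch at chr17:46032378-46032548 on the minus strand, just upstream of the transcription start. At Vegfa the part shared by all 6 libraries began at 46032350 and so ran into the gene, and only its part upstream of the start is shown. None of the 3 stretches as shown overlapped an annotated gene. The 250 bases of the Kdr promoter were at chr5:75978456-75978705 on the minus strand, and overlapped only the first bases of the Kdr exon.
Kdr upstream PU.1 peak: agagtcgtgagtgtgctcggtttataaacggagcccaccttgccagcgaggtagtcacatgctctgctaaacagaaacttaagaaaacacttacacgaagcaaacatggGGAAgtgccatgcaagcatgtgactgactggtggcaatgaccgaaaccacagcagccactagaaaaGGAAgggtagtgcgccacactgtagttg
Nrp2 upstream PU.1 peak: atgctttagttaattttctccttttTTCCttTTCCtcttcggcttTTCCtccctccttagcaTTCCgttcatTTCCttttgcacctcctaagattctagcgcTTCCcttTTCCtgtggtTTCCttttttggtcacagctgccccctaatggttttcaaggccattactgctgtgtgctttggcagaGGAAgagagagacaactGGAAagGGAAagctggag
Vegfa promoter PU.1 peak: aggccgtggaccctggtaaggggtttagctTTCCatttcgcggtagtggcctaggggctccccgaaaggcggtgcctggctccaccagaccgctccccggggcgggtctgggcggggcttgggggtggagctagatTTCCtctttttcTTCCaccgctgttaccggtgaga
Kdr promoter: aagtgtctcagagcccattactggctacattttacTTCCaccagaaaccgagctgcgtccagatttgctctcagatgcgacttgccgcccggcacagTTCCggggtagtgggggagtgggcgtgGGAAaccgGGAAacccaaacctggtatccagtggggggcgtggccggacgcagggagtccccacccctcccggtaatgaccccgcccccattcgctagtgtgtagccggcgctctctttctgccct

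The Kdr stretch held GGAA or its complement 2 times and GAGGAA, the purine-rich core extended by the bases PU.1 favours, 0 times. The Nrp2 stretch held GGAA 11 times and GAGGAA 3 times, and the Vegfa stretch held them 3 times and 1 time. Over all PU.1 peaks of a library, windows of the same length around the summit held GAGGAA in 61.5% to 65.0% of cases at 203 bases, 62.6% to 65.9% at 221 bases and 59.3% to 62.6% at 171 bases. Nrp2 and Vegfa were thus among the majority with GAGGAA, and Kdr was not. GGAA itself is common, with 98.7% to 99.3% of the 203-base windows holding it.

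All 8 genes matched the RefSeq promoter table, in which a promoter runs from 250 bases before to 50 bases after a start site. Both strands were searched and overlapping matches were allowed. GAGGAA was present in promoters of 3 genes (Flt1, Nrp1 and Vegfa), against 28.3% of all promoters. GAGGAAGT was found in none of them and in 3.2% of all promoters. ACGTG, the core of the hypoxia response element, was found in 1 gene, at an alternative Vegfa promoter, against 19.6% of all promoters. CACCTG, an E-box, was found at Flt4 and Vegfa, against 20.2%. These letter matches describe the windows only.

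Per kilobase of exon, the ligands Vegfb and Vegfc were the most abundant transcripts of the set in every diet group and every transplant arm. Levels between genes are given as RPKM, the CPM divided by the exon length in kilobases. In OAL HSCs Vegfb stood at 13.6 ± 0.250 RPKM (SD, n = 4), Vegfc at 8.77 ± 0.807, Kdr at 4.65 ± 0.264 and Vegfa at 1.78 ± 0.204. Kdr was therefore the most abundant receptor, well above Flt4 at 0.613 ± 0.129, Nrp2 at 0.607 ± 0.0421, Nrp1 at 0.240 ± 0.0700 and Flt1 at 0.195 ± 0.0588. The neighbours Flt4 and Nrp2, and Nrp1 and Flt1, did not differ beyond their spread. In OCR HSCs Vegfa, at 2.58 ± 0.479 RPKM, stood above Kdr, at 2.08 ± 0.569, but within their spread, and in YAL HSCs Vegfa, at 4.89 ± 0.565, was above Kdr, at 2.68 ± 0.733.

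**Figure D1:**
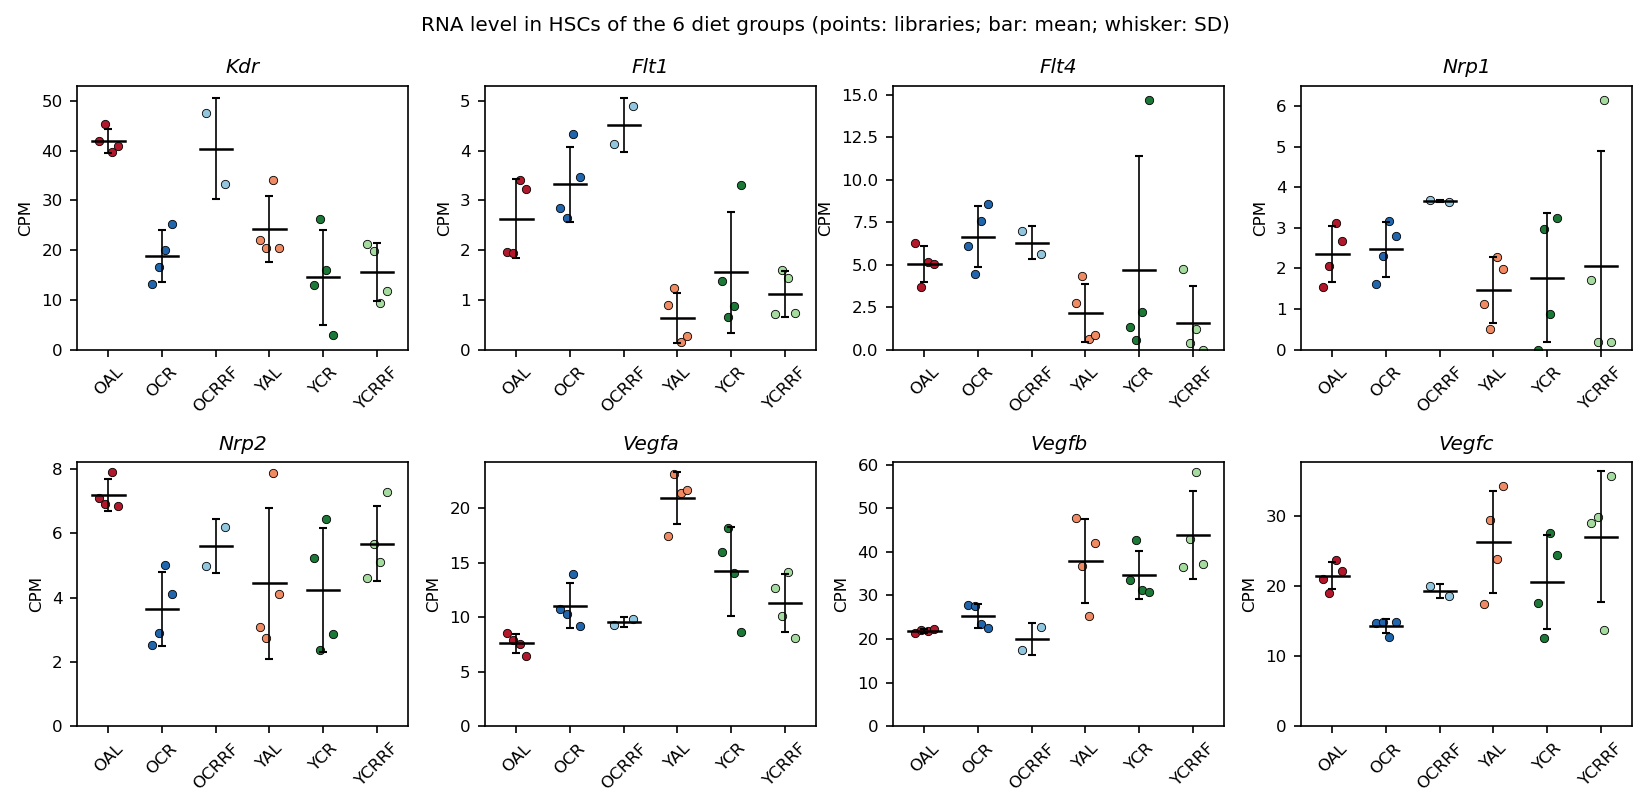
Level of each of the 8 genes in every diet library, in CPM on the vertical axis, with the 6 diet groups on the horizontal axis (points, libraries; bars, mean with SD). Kdr was 39.8 to 45.3 in OAL and 13.2 to 25.2 in OCR, and Vegfa was 17.5 to 23.2 in YAL and 6.48 to 8.56 in OAL.

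The first comparison asked how lifelong restriction changed these transcripts in old HSCs. Of the 8 genes, 4 passed the test (adjusted p below 0.05 and fold above 1.2), with Kdr, Nrp2 and Vegfc lower and Vegfa higher in OCR, against 5.57% of the 27150 genes tested. Kdr (ENSMUSG00000062960, minus strand of mm10 chr5:75932827-75978458) encodes the main signalling receptor for VEGF-A. It measured 41.9, 45.3, 39.8 and 41.0 CPM in the 4 OAL libraries and 13.2, 16.7, 20.1 and 25.2 CPM in the 4 OCR libraries. The highest OCR library was below the lowest OAL library, and the OCR libraries were spread more widely. Kdr fell by 1.14 on the log2 scale, or 2.21-fold (SE 0.134, adjusted p = 7.80e-07, edgeR's quasi-likelihood test with Benjamini-Hochberg adjustment). The study had selected Kdr from OCR and OAL samples of this series, among genes of a published HSC aging signature, so this fall is not independent evidence.

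Nrp2 (ENSMUSG00000025969, plus strand of chr1:62703285-62818695), the neuropilin usually paired with FLT4 and VEGF-C, was at 7.09, 6.90, 7.92 and 6.84 CPM in OAL and at 2.53, 2.90, 5.03 and 4.11 CPM in OCR. It fell by 0.97 on the log2 scale (SE 0.194, adjusted p = 0.00151), with no overlap between the groups. Vegfc (ENSMUSG00000031520, plus strand of chr8:54077606-54187096), a ligand of FLT4, was at 21.1, 19.0, 23.8 and 22.1 CPM in OAL against 14.8, 14.9, 12.7 and 14.9 CPM in OCR, and fell by 0.57 (SE 0.117, adjusted p = 0.00200). Vegfa (ENSMUSG00000023951, minus strand of chr17:46016993-46032369), the principal ligand of KDR, went the other way. Its libraries held 8.56, 7.95, 7.54 and 6.48 CPM in OAL and 10.8, 10.3, 14.0 and 9.20 CPM in OCR, a log2 rise of 0.55 (SE 0.151, adjusted p = 0.0262). The 2 groups did not overlap, but the call for Vegfa was lost when OCR replicate 3 or OAL replicate 2, 3 or 4 was left out, with log2 changes of 0.41 to 0.59 and an adjusted p of 0.0503 to 0.120. OCR replicate 3, with the highest Vegfa, had 46606 genes detected, against 42859 to 44271 in the other OCR libraries. Its olfactory and vomeronasal receptor genes summed to 1257 CPM, against 561 to 777 CPM in those libraries. The part of these properties in the Vegfa and Vegfc values was not tested.

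The other receptors did not pass the test. Flt4, the receptor of lymphatic endothelium, measured 3.71 to 6.29 CPM in OAL and 4.42 to 8.57 CPM in OCR (log2 change 0.41, SE 0.198, adjusted p = 0.298). Flt1 was at 1.93 to 3.40 CPM in OAL and 2.64 to 4.32 CPM in OCR (log2 change 0.35, adjusted p = 0.530), and Nrp1 at 1.55 to 3.11 CPM and 1.61 to 3.16 CPM (log2 change 0.09, adjusted p = 0.927). Both pairs of groups overlapped, and the Nrp1 values share an exon with the microRNA gene Mir1903 on the same strand. Vegfb, which binds FLT1, was at 21.3 to 22.2 CPM in OAL and 22.5 to 27.8 CPM in OCR. Those groups did not overlap, yet the log2 difference of 0.23 did not pass (adjusted p = 0.277). In all, 5 of the 8 genes did not overlap between OAL and OCR, against 11.4% of all genes tested. When all 6 diet groups shared 1 estimate of spread, none of the 4 calls was kept, and Kdr fell by 1.16 on the log2 scale with an adjusted p of 0.354.

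Markers of endothelium were examined beside these values, since endothelial cells express most of this family. The summed level of 10 defining endothelial genes was 65.2 to 104 CPM in OAL and 61.4 to 120 CPM in OCR. These 2 ranges overlapped. Cdh5 (VE-cadherin) was at most 1.26 CPM in any diet library. Cldn5 had the highest mean of the list in both groups, at 37.3 to 60.4 CPM in OAL and 42.9 to 90.7 CPM in OCR (means 44.8 and 56.5 CPM). Sox18, an endothelial transcription factor on this list, was the 1 defining gene called, at 14.8 to 27.6 CPM in OAL and 6.24 to 11.7 CPM in OCR (log2 change -1.11, adjusted p = 0.000287). The means of Cldn5 and Sox18 thus went in opposite directions within the sum. The part of Sox18 in the Kdr result was not tested.

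The 4 weeks of refeeding were compared with restriction next, with the OCR libraries shared with the comparison above. The study chose Kdr partly for its lower expression in OCR, so a Kdr difference from OCR is not independent evidence here either. Of the 8 genes only Kdr passed by edgeR, against 3.41% of 32577 genes, and DESeq2 called Vegfb as well (adjusted p = 0.0401). The OCRRF libraries held 47.6 and 33.2 CPM, both above every OCR library. Kdr was higher by 1.05 on the log2 scale, or 2.08-fold (SE 0.173, adjusted p = 8.53e-05), and without OCRRF replicate 1 this became 0.73 with an adjusted p of 0.0677. In the fit over all diet groups it was 1.10 with an adjusted p of 0.939. Sox18 was also higher in OCRRF (log2 change 1.05, adjusted p = 0.00112), at 15.6 and 23.0 CPM, and the endothelial sum was 84.9 and 102 CPM. Nrp2 was at 5.00 and 6.19 CPM in OCRRF (log2 change 0.56, adjusted p = 0.273) and Vegfc at 20.0 and 18.6 CPM (log2 change 0.37, adjusted p = 0.215). Both Vegfc libraries lay above all OCR libraries, but neither gene passed. Kdr, Vegfc and Nrp1 were the 3 genes whose groups did not overlap, against 28.3% of all genes. Vegfa, at 9.26 and 9.86 CPM, was within the OCR range (log2 change -0.26, adjusted p = 0.498). Vegfb was at 17.4 and 22.7 CPM (log2 change -0.40, adjusted p = 0.168), and Flt1, Flt4 and Nrp1 had log2 changes of 0.39, -0.13 and 0.51.

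Set against OAL, none of the 8 genes passed in OCRRF by edgeR, against 4.14% of 31816 genes. DESeq2 also called 0, and 2 of the 8, Flt1 and Nrp1, had an unadjusted p below 0.05, against 26.9% of all genes. Kdr differed from OAL by -0.06 on the log2 scale with an approximate 95% interval of -0.30 to 0.17 (adjusted p = 0.746). Leaving out 1 library gave -0.37 to 0.17. None of these values reached the size of the difference between OCR and OAL, but the interval is too narrow for so few libraries. For Nrp2 the log2 difference was -0.38 (-0.73 to -0.02, unadjusted p = 0.0553, adjusted p = 0.196), and both OCRRF libraries were below all OAL libraries. For Vegfc it was -0.16 (-0.40 to 0.07, adjusted p = 0.385). Flt1, at 4.14 and 4.89 CPM, was above all OAL libraries (log2 difference 0.77, adjusted p = 0.0894), as was Nrp1 at 3.67 and 3.63 CPM (0.63, adjusted p = 0.158). In all, 4 of the 8 genes did not overlap between OCRRF and OAL, against 38.7% of all genes. The 2 OCRRF libraries had 46232 and 46646 genes detected, against 42071 to 43972 in OAL, and 1161 and 1486 CPM from olfactory and vomeronasal receptor genes, against 530 to 752 CPM. The part of these differences in the Flt1 and Nrp1 values was not tested.

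**Figure D2:**
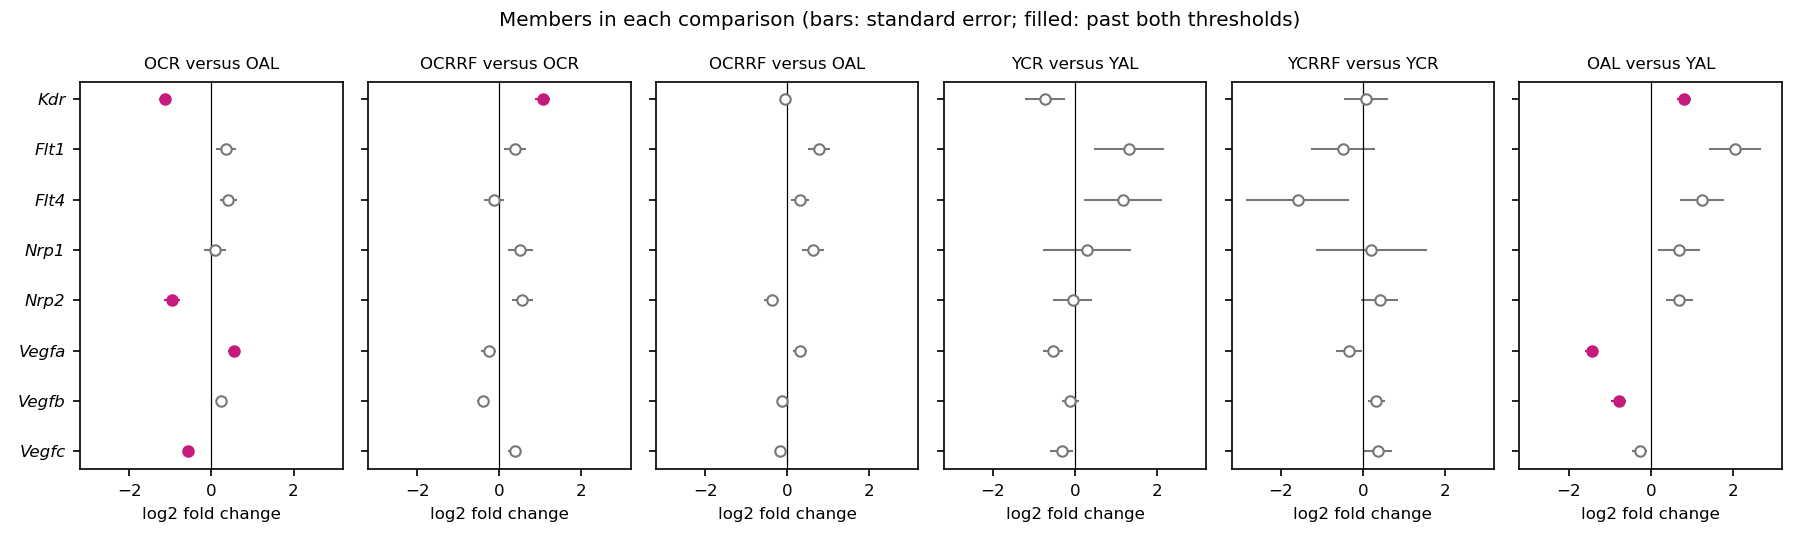
Log2 fold change of each gene (points, with the standard error as bars), with filled points past both thresholds. The comparisons are OCR versus OAL, OCRRF versus OCR, OCRRF versus OAL, YCR versus YAL, YCRRF versus YCR and OAL versus YAL. In OCR versus OAL the filled points are Kdr at -1.14, Nrp2 at -0.97, Vegfc at -0.57 and Vegfa at 0.55.

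In young mice a short course of restriction was tested. None of the 8 genes passed in YCR versus YAL by edgeR or DESeq2, against 0.257% of 18680 genes by edgeR. Among them 1, Vegfa, had an unadjusted p below 0.05, against 9.29% of all genes. Kdr was at 22.0, 20.4, 34.1 and 20.4 CPM in YAL and at 13.0, 26.2, 16.0 and 2.87 CPM in YCR. The YCR libraries ranged from far below to within the YAL range (log2 change -0.72, SE 0.485, adjusted p = 0.721). The change was -0.38 without YCR replicate 4 and -1.19 without YCR replicate 2. Vegfa was at 17.5, 23.2, 21.5 and 21.7 CPM in YAL and at 16.0, 18.2, 14.1 and 8.66 CPM in YCR (log2 change -0.54, SE 0.244, adjusted p = 0.528), so that 3 of the 4 YCR libraries lay below all YAL libraries. The same library, YCR replicate 4, held the lowest Kdr, the lowest Vegfa and the highest Flt4 of its group, and also the most detected genes of any young library, 33496, and 474 CPM from olfactory and vomeronasal receptor genes, and their part in these values was not tested. Flt4 was 14.7 CPM there and 0.592 to 2.20 CPM in the other YCR libraries, and without that library the Flt4 log2 change between YCR and YAL turned from 1.17 to -0.63, with neither called.

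None of the 8 genes passed in YCRRF versus YCR, where edgeR called 0.0102% of 19535 genes, no member had an unadjusted p below 0.05 and DESeq2 called 0. Kdr measured 21.2, 19.8, 9.43 and 11.7 CPM in YCRRF, within the spread of YCR (log2 change 0.08, 95% interval -0.97 to 1.13). In YCRRF versus YAL edgeR called 0% of 19334 genes, with 714 genes at an unadjusted p below 0.05 and 15 called by DESeq2. Among the members, 1 had an unadjusted p below 0.05 and DESeq2 called 0. Vegfa was at 12.7, 10.1, 14.1 and 8.13 CPM in YCRRF, below every YAL library, and it was the 1 member whose groups did not overlap, against 3.22% of all genes. Its log2 change of -0.88 (SE 0.257, unadjusted p = 0.00552, adjusted p = 0.995) did not pass. Vegfb and Vegfc had log2 changes of 0.22 and 0.05.

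Whether restriction acted differently in old and young HSCs was tested as the difference between the 2 responses. None of the 8 genes passed by edgeR, against 0.0424% of 28328 genes. Vegfa came nearest. Its log2 change under restriction was 0.55 in old HSCs, which passed, and -0.54 in young HSCs, which did not, and the 2 responses differed by 1.10 on the log2 scale (SE 0.304, unadjusted p = 0.00172, adjusted p = 0.274). It was the 1 gene of the set with an unadjusted p below 0.05, against 8.93% of all genes, and the 1 called by DESeq2 (adjusted p = 0.0331). For Kdr the difference was -0.40 (95% interval -1.45 to 0.65, adjusted p = 0.931) and for Nrp2 -0.89 (-1.95 to 0.17, adjusted p = 0.708). The lower Kdr level under restriction was thus not shown to be limited to old mice.

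With age, in HSCs of mice fed ad libitum, Kdr and 2 of the 3 ligands went in opposite directions. Of the 8 genes, 3 passed in OAL versus YAL, against 14.8% of 23525 genes, with Kdr higher and Vegfa and Vegfb lower in old HSCs. Kdr rose by 0.81 on the log2 scale, or 1.75-fold (SE 0.170, adjusted p = 0.0115), from 20.4 to 34.1 CPM in YAL to 39.8 to 45.3 CPM in OAL. The study drew Kdr from a published list of genes higher in aged HSCs, so a rise with age was part of its selection. Vegfa was 17.5 to 23.2 CPM in YAL and 6.48 to 8.56 CPM in OAL, and fell by 1.44, or 2.72-fold (SE 0.163, adjusted p = 0.000523). Vegfb was at 47.9, 36.7, 25.2 and 41.9 CPM in YAL and 21.3, 22.0, 21.9 and 22.2 CPM in OAL, and fell by 0.78 (SE 0.178, adjusted p = 0.0160). None of these 3 genes overlapped between the groups, nor did Flt1, where 27.6% of all genes did not overlap. Vegfb lost its call without OAL replicate 1, 2 or 4 (adjusted p up to 0.0574), and Kdr lost its in the fit over all diet groups (log2 change 0.79, adjusted p = 0.158).

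Flt1 was 0.149 to 1.23 CPM in YAL and 1.93 to 3.40 CPM in OAL. These groups did not overlap, and the log2 difference of 2.06 missed the threshold (SE 0.636, adjusted p = 0.0508), while DESeq2 called it (adjusted p = 0.00872). Flt4 (1.25, adjusted p = 0.142), Nrp2 (0.70, adjusted p = 0.183), Nrp1 (0.69, adjusted p = 0.397) and Vegfc (-0.27, adjusted p = 0.381) did not pass. Old libraries held more detected genes, 42071 to 46646 in the 10 old libraries against 22209 to 33496 in the 12 young ones. Summed olfactory and vomeronasal receptor counts, from 1736 genes of sensory neurons, were 530 to 752 CPM in OAL and 109 to 220 CPM in YAL. The endothelial sum was 53.9 to 61.2 CPM in YAL, below OAL. Its members did not move together. Cldn5 was at a mean of 44.8 CPM in OAL and 18.8 CPM in YAL, while Sox18 was at 19.8 and 29.9 CPM. Plvap, Aplnr and Fabp4 also had no higher mean in OAL. Age and these properties of the libraries cannot be told apart.

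Lists of other genes of the pathway were counted in the same fits. Among the other ligands and neuropilin or semaphorin partners, none of 14 tested genes passed in OCR versus OAL by edgeR, with 4 at an unadjusted p below 0.05. Over all genes 5.57% passed and 16.2% had such an unadjusted p. In OCRRF versus OCR, with 3.41% of all genes called, 1 of 15 was higher, Sema3e, a semaphorin that binds plexin D1 (log2 change 1.27, adjusted p = 0.00367). In OCRRF versus OAL, with 4.14% of all genes called, 2 of 15 were higher, Sema3d and Sema3a (1.42 and 1.07). In OAL versus YAL, with 14.8% of all genes called, 1 of 14 was higher, Sema3b, at 0.901 ± 0.368 against 0.109 ± 0.0975 CPM. Sema3b was named after its values were seen because it was below the level set for named genes.

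Of 55 genes that signal or act downstream of KDR, 4 were lower and none higher in OCR versus OAL, against 5.57% of all genes called in either direction, with a list median of -0.03 against 0.02 over all genes. They were Spry1, a feedback inhibitor of receptor tyrosine kinase signalling (log2 change -0.62, adjusted p = 0.000379), the kinase Src (-0.52, adjusted p = 0.0341), and the catalytic and regulatory PI3-kinase subunits Pik3cd (-0.49, adjusted p = 0.0266) and Pik3r1 (-0.34, adjusted p = 0.0383). In OCRRF versus OCR, where 3.41% of all genes were called, 1 was higher and 6 were lower (median -0.17 against 0.11 over all genes). Pik3cd was the higher one, at 199 ± 43.5 CPM (SD, n = 2) against 96.7 ± 25.5 CPM (log2 change 0.99, adjusted p = 3.23e-05), and the adaptor Grb2 (-0.56) was among the lower ones. In YCR versus YAL, with 0.257% of all genes called, 1 of 54 was lower, again Pik3cd (-1.01, adjusted p = 0.0263). Pik3cd was also lower in OAL than in YAL (-1.10, adjusted p = 0.00226). In OAL versus YAL, with 14.8% of all genes called, 4 of 55 were higher and 6 lower, among them Rac2, a GTPase of blood cells (-0.63, adjusted p = 0.000226). In OCRRF versus OAL 2 were higher and 8 lower, with 4.14% of all genes called.

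Transcripts known to be induced by VEGF in endothelium were counted too. Dll4, a Notch ligand, was the 1 of 9 called in OCR versus OAL (log2 change -0.51, adjusted p = 0.0473), against 5.57% of all genes. The list median was -0.17 against 0.02 over all genes. In the same list none of 10 was called in OCRRF versus OCR, and 2 had an unadjusted p below 0.05, against 16.9% of all genes. Rcan1, an inhibitor of calcineurin, was the 1 of 9 called in OCRRF versus OAL (-0.55, adjusted p = 0.0239), against 4.14% of all genes. Of 18 genes of oxygen sensing and the hypoxia response, which include known regulators of Vegfa, 2 were lower in OCR versus OAL, against 5.57% of all genes called. They were Epas1, which encodes HIF-2alpha (-0.68, adjusted p = 0.0351), and Pdk1, an inhibitor of pyruvate oxidation (-0.30, adjusted p = 0.0409). Pdk1 was also the 1 of 17 called in YCR versus YAL (-0.81, adjusted p = 0.0483), against 0.257% of all genes. Hif1a was lower in OCRRF versus OCR (-0.53, adjusted p = 0.0121), Ldha and Ndrg1 were lower in OCRRF versus OAL (-0.29 and -0.51), and Ndrg1 was higher in OAL versus YAL (0.88, adjusted p = 0.00715). Those comparisons called 3.41%, 4.14% and 14.8% of all genes in turn. None of these lists had a gene called in YCRRF versus YCR, in YCRRF versus YAL, in the difference between the old and young responses, or in either knockdown. At an unadjusted p below 0.05 the signalling list held 6 genes in YCRRF versus YCR, 6 in the Kdr knockdown and 5 in the double knockdown, of 54, 52 and 52 tested. These stood against 7.27%, 8.9% and 9.85% of all genes.

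The genes whose log2 CPM followed each member most closely over the 22 diet libraries were ranked among 12326 genes by Pearson's r, as a description, since libraries share their group and depth. Kdr was followed by S1pr1, a sphingosine 1-phosphate receptor (r = 0.879), then Nhsl2 (0.838), Slc25a20 (0.826) and Jun (0.819). Vegfb was followed by Ndufs7, a subunit of respiratory complex I (0.926), Vegfc by Gatd1 (0.868) and Vegfa by Magee1 (0.825). Nrp1 was followed by Tenm4 (0.885), Flt4 by Eya4 (0.851), Flt1 by Gm10722 (0.833) and Nrp2 by Gm10499 (0.761). No member was among the 5 genes most like another.

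**Figure D3:**
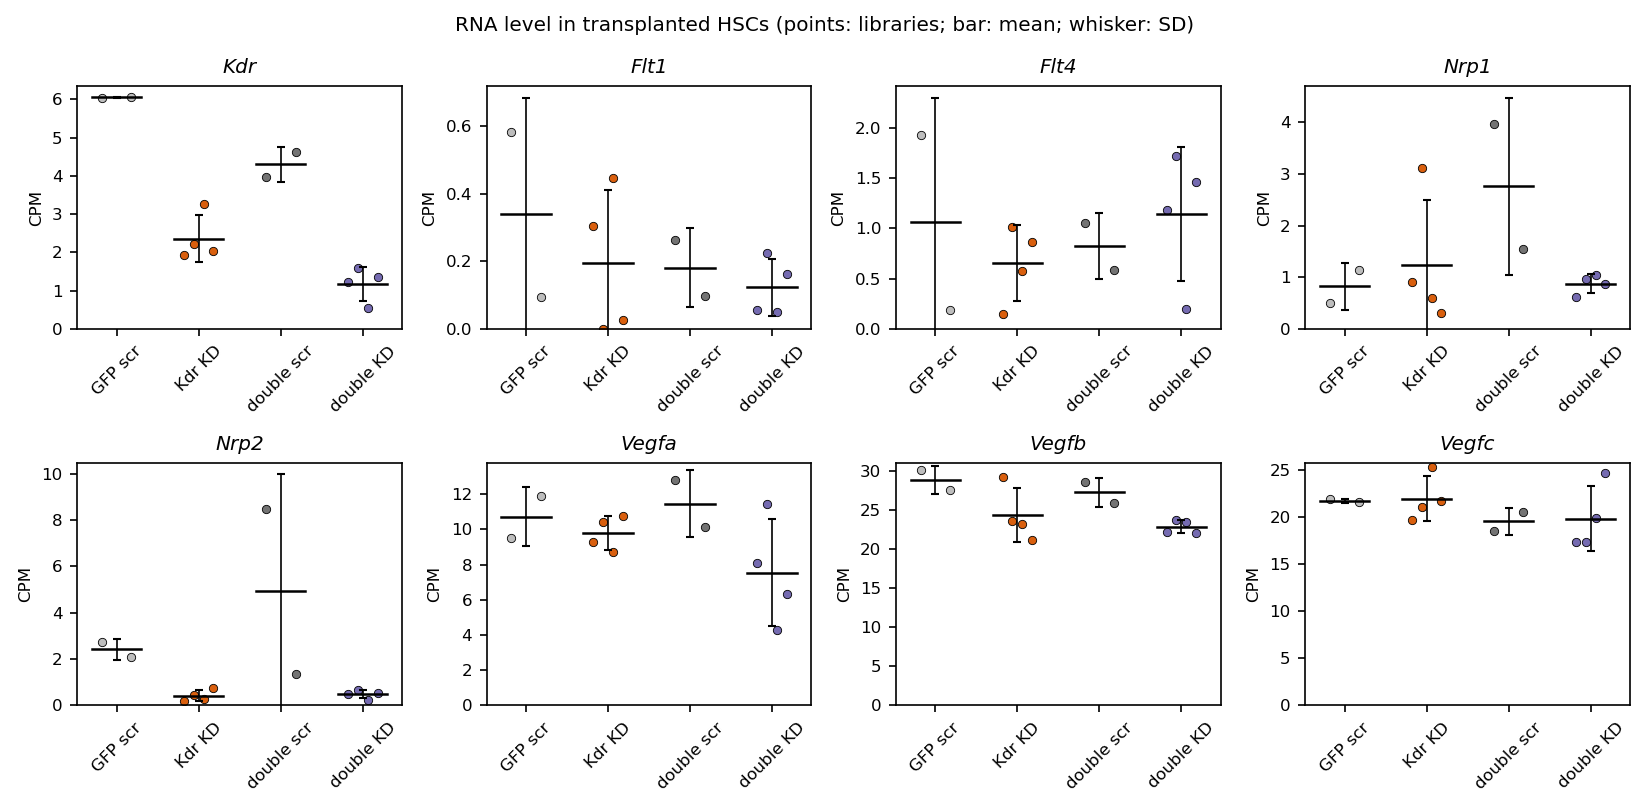
Level in each transplanted library, in CPM, by transplant arm (points, libraries; bars, mean with SD). Kdr was at 6.04 and 6.07 with the GFP scramble and at 1.93 to 3.28 with the Kdr shRNA, and Nrp2 was at 2.73 and 2.102 against 0.203 to 0.737.

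In the transplanted HSCs the targeted gene was read first. Kdr was at 6.04 and 6.07 CPM with the GFP scramble and at 1.93, 2.21, 3.28 and 2.03 CPM in the 4 KdrKD libraries. With the double scramble it was at 3.97 and 4.62 CPM, and in the double knockdown at 1.24 and 0.555 CPM with Bmpr1a shRNA1 and 1.60 and 1.35 CPM with shRNA2. Every knockdown library was below both of its scramble libraries. The fall was 1.35 on the log2 scale, or 2.56-fold, for KdrKD (SE 0.251, unadjusted p = 0.000480, adjusted p = 0.247) and 1.86, or 3.62-fold, for the double knockdown (SE 0.373, unadjusted p = 0.00114, adjusted p = 0.272). DESeq2 called both (adjusted p = 0.00269 and 0.00701). The other target, Bmpr1a, a BMP receptor, was at a mean of 4.82 ± 0.553 CPM (SD, n = 2) with the double scramble and 1.98 ± 1.80 CPM (n = 4) in the double knockdown, a log2 change of -1.29 that did not pass (SE 0.717, adjusted p = 0.602).

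None of the 8 genes passed in KdrKD by edgeR, against 0.0149% of 20098 genes, and DESeq2 called 1, Kdr. At an unadjusted p below 0.05 there were 2, against 8.9% of all genes, Kdr and Nrp2. Nrp2 was at 2.73 and 2.102 CPM with the GFP scramble and at 0.203, 0.457, 0.267 and 0.737 CPM in KdrKD. All 4 knockdown libraries were below both scramble libraries, with 8 to 29 counts each against 103 and 88. Kdr and Nrp2 were the 2 genes whose groups did not overlap, against 21.9% of all genes. Its log2 change was -2.53 (SE 0.485, unadjusted p = 0.000593, adjusted p = 0.251), a larger change than that of Kdr in the same fit, though the difference between the 2 genes was not tested. Vegfa, Vegfb and Vegfc had log2 changes of -0.13, -0.24 and 0.01, with groups that overlapped. Flt1, Flt4 and Nrp1 overlapped too, and Flt1 had 0 to 22 counts per library. HSC markers also differed here, with 6 of 9 at an unadjusted p below 0.05 and a median log2 change of -0.28. Of the markers used to sort cells out, 2 of 3 tested had such a p, with a median of 0.35. In the double knockdown 1 of the 9 HSC markers had such a p, with a median of -0.08. The part of these marker differences in the Nrp2 values was not tested.

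In the double knockdown none of the 7 genes tested passed by edgeR, against 0.00498% of 20072 genes, Flt1 being below the filter on low counts. At an unadjusted p below 0.05 there were 4, against 9.85% of all genes, namely Kdr, Nrp2, Nrp1 and Vegfb, and DESeq2 called Kdr and Nrp2. Nrp2 was at 8.50 and 1.35 CPM with the double scramble and at 0.505, 0.252, 0.649 and 0.541 CPM in the double knockdown (log2 change -3.32, SE 0.646, unadjusted p = 0.000918, adjusted p = 0.254). Both scramble libraries were above all 4 knockdown libraries, but they differed widely from each other. Nrp1 was at 3.97 and 1.55 CPM against 0.618 to 1.04 CPM (-1.65, SE 0.405, unadjusted p = 0.00366), and Vegfb at 28.6 and 25.9 CPM against 22.1 to 23.7 CPM (-0.25, SE 0.101, unadjusted p = 0.0377). Together with Kdr and Nrp2 these were 4 genes whose groups did not overlap, against 21.3% of all genes. Without replicate 1 of the double scramble the Nrp2 log2 change was -1.47 and that of Nrp1 -0.83, and without replicate 2 they were -4.11 and -2.17. In the test of the double against the single knockdown effect edgeR called 0 members and 0% of 21250 genes, with 0 members and 760 genes at an unadjusted p below 0.05, and DESeq2 called 0 members and 3 genes. That test took the arms as independent, though they may share recipients. Endothelial markers were low in all transplanted libraries, 5.06 to 20.1 CPM in sum, with Cdh5 at 0 in every KdrKD and double knockdown library. Sox18 was at 9.02 to 11.1 CPM in KdrKD and 2.93 to 7.19 CPM in the double knockdown. Within this sum the scramble libraries held 16.0 to 20.1 CPM, KdrKD 13.0 to 15.7 CPM and the double knockdown 5.06 to 11.7 CPM, and its part in these changes was not tested.

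Histone marks were analysed here in OCR HSCs only, as the mean signal per base downstream of each start site, for 750 bases with H3K4me3, a mark of active or poised promoters, and for 2000 bases with H3K27me3, the mark laid down by Polycomb. The receptors and co-receptors carried far more H3K27me3 than the ligands. Flt1 had 8.67 and 6.86 in the 2 libraries, at the 99.7th percentile of 31552 transcripts. Nrp2 had 4.65 and 4.41, Nrp1 4.36 and 4.49, Flt4 3.11 and 2.91, and Kdr 1.67 and 1.87. These lay at percentiles from 86.5 for Kdr to 94.5 for Nrp2, where the 90th percentile of all transcripts was 2.77. Vegfa had 0.275 and 0.529, Vegfc 0.289 and 0.226 and Vegfb 0.0977 and 0.139, around or below the median of 0.308. The lowest receptor value was above the highest ligand value in both libraries.

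**Figure D4:**
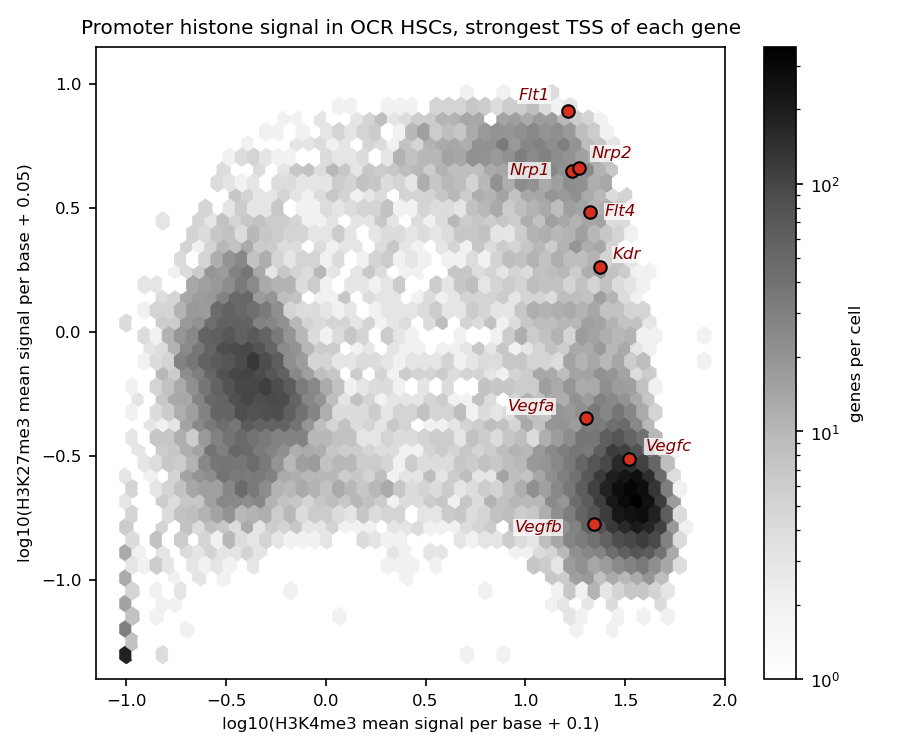
H3K4me3 and H3K27me3 signal per base at each gene, as the mean of the 2 OCR libraries on log10 axes (points), over the density of all genes. The start site with the strongest H3K4me3 stands for each gene. In each library all 5 receptors and co-receptors had H3K27me3 of 1.67 or more, and the 3 ligands 0.529 or less.

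At the start site of each gene where it was strongest, H3K4me3 was above the median of 9.95 for all 8 genes. It ran from 16.1 and 16.4 at Flt1 to 33.2 and 32.5 at Vegfc, which was at the 82.5th percentile, and it was 26.2 and 21.2 at Kdr. The alternative Vegfa start site had only 0.179 and 0.273, and the mean over the Vegfa start sites was 10.2. Flt1, Flt4, Nrp1 and Nrp2 combined an H3K4me3 signal at or above the median of genes with H3K27me3 in the top 10%, a pairing held by 3.82% of 25127 genes. Kdr, the most abundant of the receptors, was outside that group. Only OCR was analysed here for these marks, so no comparison between diets was made.

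Chromatin accessibility was compared between OCRRF and OCR. The start sites of the 8 genes had 11 peaks within 1 kb, and none was called, against 0.221% of 123372 peaks (adjusted p below 0.05, fold above 1.5 and mean log2 CPM above 1.5). None of the 23 peaks within 5 kb or the 87 within 50 kb was called either. At an unadjusted p below 0.05 there were 2 of the 11, against 11.7% of all peaks, and DESeq2 called 0. The Kdr promoter peak at chr5:75977702-75978855 held 14.9, 14.6, 17.4 and 16.8 CPM in OCR and 19.3 and 17.3 CPM in OCRRF. These groups overlapped (log2 change 0.20, SE 0.118, adjusted p = 0.543), in contrast to the Kdr transcript in the same pair of groups, and no test compared the assays.

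The Vegfc promoter peak at chr8:54076632-54078295 was the most accessible of the set, at the 99.0th percentile of all peaks. It held 71.5, 70.9, 62.9 and 70.4 CPM in OCR and 83.0 and 80.6 CPM in OCRRF. Both refed libraries were above all OCR libraries, and the log2 change of 0.24 missed the threshold (SE 0.0645, adjusted p = 0.0660). At Nrp1 the peak upstream of the start site was at 20.1 ± 1.00 CPM (SD, n = 4) in OCR and at 18.5 and 15.4 CPM in OCRRF (log2 change -0.25, unadjusted p = 0.0327, adjusted p = 0.372). Peaks at the start sites of Flt1, Flt4, Nrp2, Vegfa and Vegfb had log2 changes of 0.03, -0.12, 0.10, -0.05 and -0.18; none had an unadjusted p below 0.05.

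PU.1 peaks were deposited for each library, and the libraries held 2262 to 5464 of them. Within 1 kb of a start site, Vegfa had a peak in all 6 libraries and Flt4 in 1, where 2.01% to 5.16% of all genes had one. The Vegfa summit was at -44 to -80 bases from the start, upstream of it. Its fold enrichment was 6.67 and 6.05 in OAL, 9.13 and 11.8 in OCR, and 7.57 and 8.44 in OCRRF. The single Flt4 peak was in OCR replicate 1, with a fold of 10.0 and its summit at -570 bases.

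**Figure D5:**
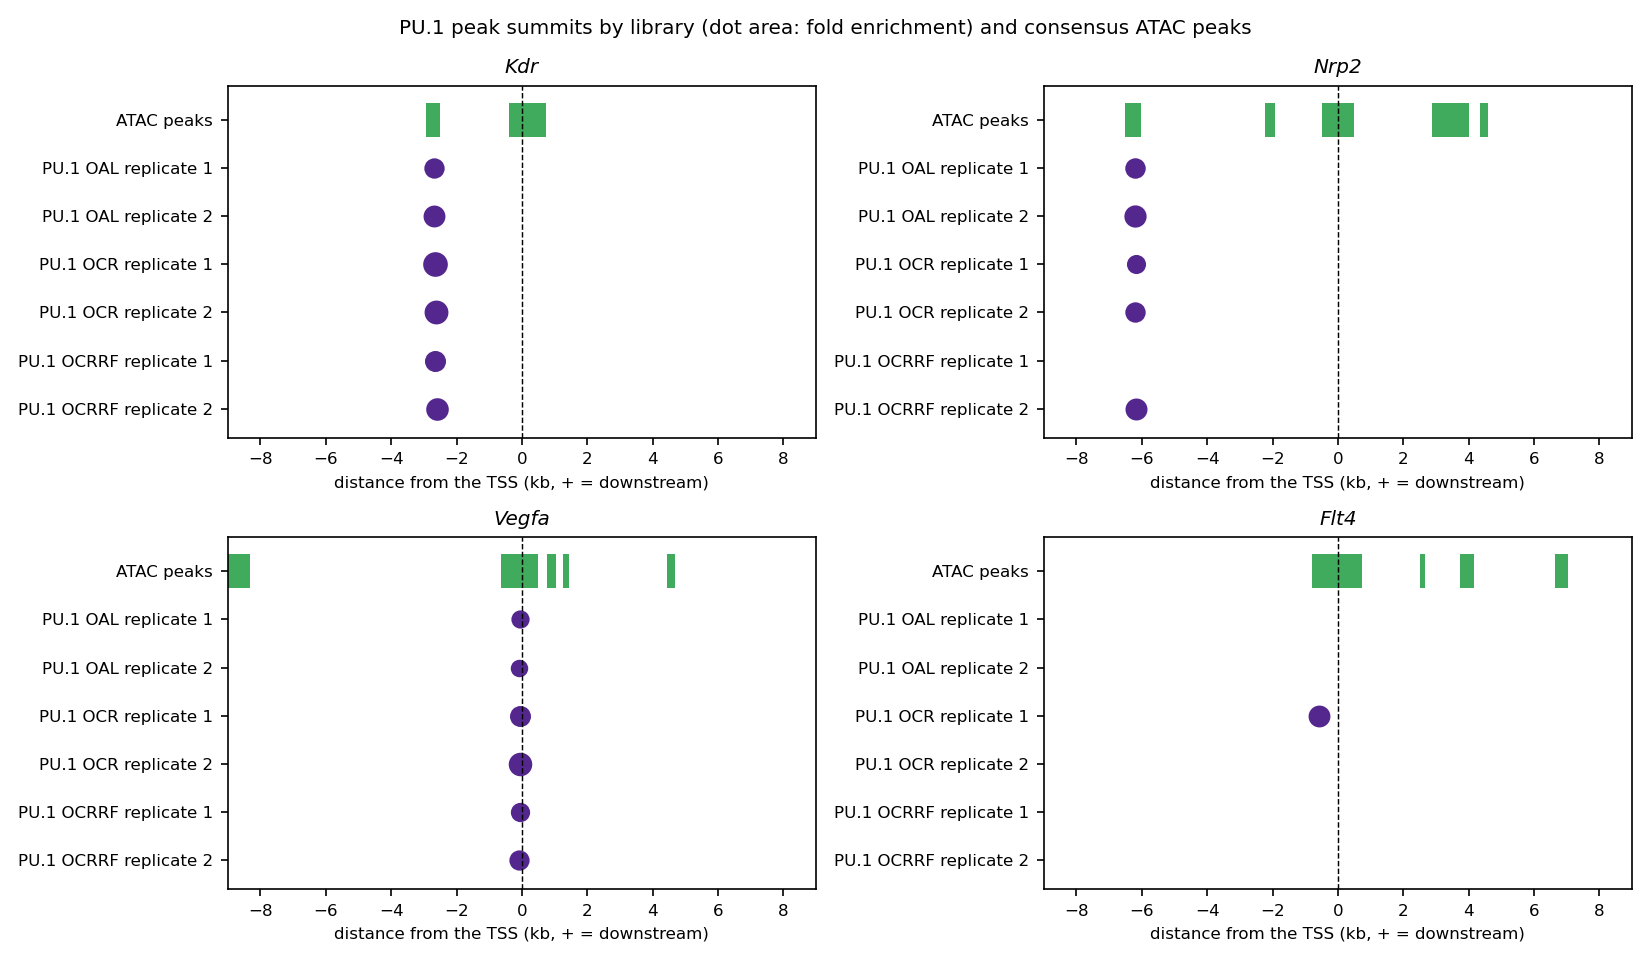
PU.1 peaks of each library around the start sites of Kdr, Nrp2, Vegfa and Flt4, by distance from the start site. Peaks at Vegfa and upstream of Kdr appear in all 6 libraries, with Kdr summits at -2607 to -2696 bases from the start.

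Kdr had a peak in all 6 libraries with its summit at -2607 to -2696 bases, upstream of the gene and within the wider window of 5 kb, in which 3.29% to 8.06% of all genes had a peak. The fold was 8.53 and 10.0 in OAL, 13.0 and 12.1 in OCR, and 9.20 and 10.7 in OCRRF. Both OCR values were above the other 4, but peak folds are also set by each library's background and depth. The 2 libraries of a group may also differ in antibody or batch, and no test was run on 2 libraries per group. The peak overlapped an accessible region 417 bases wide, at 5.08 ± 0.724 CPM in OCR and a mean of 5.86 CPM in OCRRF (log2 change 0.20, adjusted p = 0.764). Nrp2 had a peak with its summit at -6163 to -6218 bases in 5 of 6 libraries, absent in OCRRF replicate 1, with folds of 7.39 to 10.4. Vegfb had peaks within 50 kb in 3 libraries, and Flt1, Nrp1 and Vegfc had none within 50 kb in any library, where 15.0% to 31.5% of all genes had one.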

How the data were processed

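HSC libraries of 6 diet groups and 4 transplant arms were analysed from deposited tables. Per the study's methods, the authors trimmed reads, aligned them to mm10 with STAR and made the deposited raw counts per gene with featureCounts on GENCODE M22, and strand settings were not given in the sources used here. The deposited ATAC-seq counts cover 131918 consensus peaks (BWA, MACS). The authors made the histone signal, a mean per base downstream of each start site scaled to the same number of reads in every library. The deposited PU.1 peaks of MACS2 give a fold enrichment ratio, −log10 p-values and q-values and a score, of which the fold and −log10 q were used. The study's methods name anti-PU.1 antibodies of ThermoFischer and abcam. The antibody of the second PU.1 library of each group was not given in the labels, so the libraries of a group may differ in antibody or batch.

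Counts were filtered with filterByExpr and TMM-scaled, and only the groups compared entered a fit, by the quasi-likelihood test of edgeR 4.0.16 in R 4.3.3. A gene was called where its fold was above 1.2 and its p, adjusted by Benjamini-Hochberg, below 0.05. Scripts were tested on simulated data. DESeq2 1.42.0, other scalings and filters, a shared fit, a replicate block and leaving out each library were the alternatives. Per-length levels used exon lengths of GENCODE M21, and sequences came from RefSeq. All 8 genes were named in every comparison, with called genes of the lists (at most 4 per list, mean of at least 1 CPM, with 1 item not reported here) and the 5 genes most like each. The members and lists were chosen with earlier results of these data known. Intervals of 95% are from the fitted standard errors and a normal distribution, so with few libraries they are too narrow. Levels were not compared between the diet and transplant experiments, which used different kits and sequencers.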

Additional observations from a re-analysis of the deposited data

Results flagged for a closer look

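Of the 67 groups of 4 libraries examined for a library far from the other 3 (Dixon's test), 5 had one, and chance marks about 1 group in 20. Flt4 in YCR replicate 4 was 14.7 CPM, against 0.592 to 2.20 CPM in the other YCR libraries. Kdr in YAL replicate 3 was 34.1 CPM, against 20.4 to 22.0 CPM. Vegfc in OCR replicate 3 was 12.7 CPM, against 14.8 to 14.9 CPM. In the same OCR replicate number of the ATAC-seq set, the Vegfc promoter peak was 62.9 CPM, against 70.4 to 71.5 CPM, though the labels do not tie the RNA and ATAC-seq libraries to the same mice. A small ATAC-seq peak at Vegfa in OCR replicate 2 was 2.45 CPM, against 1.81 to 1.91 CPM.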

How the results depend on the processing

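Over 1477 recomputed values, 1428 kept their side of the threshold (for counts, within 1.5 times, and for values with no test, within the replicate spread), 14 lost a call, 17 gained one, 18 moved and 0 called values reversed. Among the 1428, 61 values without a call changed sign. With all groups of an experiment in 1 fit, 0 members were called in OCR versus OAL and 0 in OCRRF versus OCR, Kdr was at -1.16 in OCR versus OAL (adjusted p = 0.354, SE 0.376 against 0.134) and at 0.79 in OAL versus YAL (adjusted p = 0.158), and 212 genes in place of 1511 were called in OCR versus OAL. DESeq2 called 2 members in OCRRF versus OCR, 1 in the old minus young response, 1 in the Kdr knockdown (Kdr -1.35) and 2 in the double knockdown (Kdr -1.86). Without a filter on low counts 2 members were called in the Kdr knockdown (Kdr -1.35, adjusted p = 0.0484). PU.1 peaks within 50 kb involved 5 members, against 2 within 1 kb. Leaving out 1 library gave 2 to 5 members called in OAL versus YAL (5 at most without YAL replicate 2 or 3), 0 to 1 in OCRRF versus OCR (0 without OCRRF replicate 1) and 1 to 2 members with a PU.1 peak within 1 kb (1 without OCR replicate 1). Why these values moved was not tested.

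Samples with the same replicate number did not deviate together (r of -0.293 to 0.185 over the comparisons, with no comparison in which every pair was over 0.1), so the numbers were not taken as pairs. With a replicate block, 3 members were called in OCRRF versus OCR (Kdr, Nrp2 and Vegfb) and 1 in OCRRF versus OAL (Flt1), and genes called were 3437 in place of 1110, 2080 in place of 1316, 1651 in place of 3486 in OAL versus YAL, 7 in place of 48 in YCR versus YAL 26 in place of 3 in the Kdr knockdown, 0 in place of 1 in the double knockdown, 0 in place of 2 in YCRRF versus YCR and 3 in place of 12 in the old minus young response, with 764 in place of 273 ATAC-seq peaks. No other count of members called changed under the block.

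Counts over all genes also moved by over 1.5 times elsewhere. DESeq2 called 2297 genes in OCRRF versus OCR, 3835 in OCRRF versus OAL, 452 in YCR versus YAL, 268 in place of 2 in YCRRF versus YCR, 15 in place of 0 in YCRRF versus YAL, 182 in place of 12 in the old minus young response, 302 in the Kdr knockdown 332 in place of 1 in the double knockdown and 3 in place of 0 in the double minus single effect. Without a filter 2684 were called in OCRRF versus OAL, 6671 in OAL versus YAL, 368 in YCR versus YAL, 275 in YCRRF versus YCR, 40 in YCRRF versus YAL, 23 in the old minus young response, 82 in the Kdr knockdown, 19 in the double knockdown and 5 in place of 0 in the double minus single effect. With at least 10 counts in every library there were 1852 in OAL versus YAL, 98 in YCR versus YAL, 4 in YCRRF versus YCR, 20 in the old minus young response and 5 in the Kdr knockdown. With DESeq2's size factors there were 3215 in OCRRF versus OAL and 1 in YCRRF versus YCR. The single fit gave 64 in OCRRF versus OCR, 0 in OCRRF versus OAL, 201 in YCR versus YAL, 538 in YCRRF versus YCR, 9 in YCRRF versus YAL, 3 in the old minus young response, 0 in the Kdr knockdown and 15 in the double knockdown. Flt1, Nrp1 and Flt4 had few counts in young and transplanted libraries, so only large differences could be detected there, and 2 OCRRF or scramble libraries limit every comparison that uses them.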
